A study of Rattus norvegicus with 200 samples.

Results

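Fat2, Cbln1, Gabra6, Grin2c, Neurod1, Zic1, Slc17a7 and Cadm3 are genes that cerebellar granule neurons transcribe strongly. They were taken by name, as a readout of cerebellar RNA, from the count table of a series of rat brain libraries, and they are 8 of its 20361 genes. They were chosen by their symbols after their CPM over the 6 treatments and 6 times was known, so their levels and the differences between groups are a description of these libraries. Where a member is named as called, the fit over all genes passed it at its threshold. That call and the share of all genes called are given to place the value and are not a test of the members.

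The series compared bulk RNA of adult male wild-type rats of the Wistar stock, in libraries whose labels name the brain as tissue and microglia, the resident macrophages of the brain, as cell type. Their food was either a standard chow or high in fat (HFD). Food was available ad libitum, during the dark phase alone (dark-feeding) or during the light phase alone (light-feeding). Samples were collected at 6 Zeitgeber times (ZT), 4 h apart, counted from lights on. The 6 groups were chow ad libitum (34 libraries), chow dark-feeding (33), chow light-feeding (33), HFD ad libitum (34), HFD dark-feeding (33) and HFD light-feeding (33). Each group had 5 to 7 libraries at every time. The labels name no transgene, and they do not say that each library came from a separate rat, so every p-value below measures the spread between these libraries.

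Granule neurons are small glutamatergic cells packed in the inner layer of the cerebellar cortex, and they are the most numerous neurons of the brain. Mossy fibres excite them through NMDA receptors that gain the GluN2C subunit as the cells mature, Golgi cells inhibit them through GABA-A receptors that contain the alpha6 subunit, and their parallel fibres contact Purkinje cells at synapses held together by secreted cerebellin. Gabra6 and Fat2 are largely restricted to granule neurons in the brain. Slc17a7 and Cadm3 are also transcribed in forebrain neurons, and Grin2c in some astrocytes.

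The promoters of both ion channel subunit genes are shown because these genes differed between the diets in opposite directions. Each run holds 250 bases before and 50 after the annotated start, 5′ to 3′ on the gene's strand, from RefSeq on build GRCr8, which is not the build of the deposited tables. Capitals mark matches to 4 motifs searched on both strands.
Gabra6, chr10:27327185-27327484, minus strand: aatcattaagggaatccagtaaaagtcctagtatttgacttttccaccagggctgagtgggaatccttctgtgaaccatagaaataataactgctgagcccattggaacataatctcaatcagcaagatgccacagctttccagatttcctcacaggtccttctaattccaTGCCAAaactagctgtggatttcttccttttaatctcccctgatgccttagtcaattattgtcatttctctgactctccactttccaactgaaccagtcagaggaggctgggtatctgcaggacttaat
Grin2c, chr10:101005089-101005388, minus strand: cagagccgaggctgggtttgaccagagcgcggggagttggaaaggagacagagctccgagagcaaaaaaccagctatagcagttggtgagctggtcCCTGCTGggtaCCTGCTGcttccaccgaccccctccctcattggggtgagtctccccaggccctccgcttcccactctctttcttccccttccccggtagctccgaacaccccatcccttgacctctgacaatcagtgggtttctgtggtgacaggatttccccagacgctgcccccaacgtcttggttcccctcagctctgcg

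The window of Gabra6 held TTGGCA, letters bound by nuclear factor I proteins, as TGCCAA on the gene's strand, starting at base 172 of the 300. TTGGCA was present in 14.0% of all 33469 RefSeq promoter windows of this length. The window of Grin2c held CAGCAGG, letters bound by Zic proteins, as CCTGCTG starting at bases 97 and 108, and 9.64% of all windows held it. The E-box forms CAGATG and CAGCTG, letters bound by NeuroD and related proteins, were in 16.6% and 15.1% of all windows and in 0 of the 6 members that had a window. Fat2, Neurod1, Slc17a7 and Cadm3 matched none of the 4 motifs in this window. A match describes these letters and is not shown to be a site of binding.

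Total counts ran from 3777749 to 11636261 per library, with a median of 7548305. Levels are CPM, counts per 1000000 of a library total scaled by TMM (the trimmed mean of M values). Title numbers started anew with the diet, so the effect of diet and that of anything tied to title series cannot be told apart. Of HFD libraries, 28 of the 34 ad libitum libraries and 0 of the other HFD libraries had title numbers up to 46. The summed level of the 8 genes differed by a median of 0.08 on the log2 scale between libraries of the same group and time with title numbers 1 to 2 apart (169 pairs), and by 0.12 between those more than 20 apart (197 pairs). Over all other genes, 3 libraries stood apart from their group and time by a robust z above 5. They were 1 of chow light-feeding at ZT18, 1 of chow ad libitum at ZT14 and 1 of HFD ad libitum at ZT6, and counts of called members that move without them are given both ways.

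In these libraries the 8 genes were among the most abundant transcripts, although the label is microglia. They held 0.991% ± 0.0818 of all counts (SD, n = 200; 0.590% to 1.20%). Per transcript length, in FPKM, which divides fragments by transcript length and library size, Cadm3, a cell adhesion molecule of axons and synapses, had the highest mean of the 8 at 733 ± 79.4 and ranked 17 among 17611 genes. Cbln1, the secreted cerebellin that bridges parallel fibres to Purkinje cells, stood at 653 ± 83.4 FPKM. Gabra6 stood at 598 ± 79.6 FPKM and Slc17a7, the vesicular glutamate transporter of granule neurons, at 595 ± 59.2. Gabra6 and Slc17a7 differed by less than their SD over libraries, as did Cbln1 and Gabra6, and Cadm3 and Cbln1 differed by about 1 SD. Grin2c, the GluN2C subunit, had 420 ± 62.3 FPKM (mean 419.68). Fat2, a giant protocadherin, had 182 ± 21.4 FPKM, Zic1, a zinc finger transcription factor of granule neurons and their precursors, had 161 ± 27.0, and Neurod1, a basic helix-loop-helix factor of granule neuron differentiation, had 102 ± 18.7 and ranked 630. Fat2 and Zic1 differed by less than the SD of Zic1, while Grin2c lay between both sets by more than its own SD.

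The marker lists of other cells placed these values. The median of the 8 mean levels was 507 FPKM. It was 36.4 FPKM for 24 other granule neuron genes, from Grm4, a presynaptic glutamate receptor of parallel fibres, at 376 to Fgf5 at 0.148. The medians were 13.3 FPKM for 14 Purkinje cell genes, 15.3 for 8 Bergmann glia genes, 28.4 for 8 inhibitory neuron genes and 73.1 for 15 pan-neuronal genes. Forebrain neuron genes were low. Their median over 16 genes was 4.63 FPKM, from Emx1 at 0.862 to Nrgn at 60.0, and thalamus and midbrain neuron genes had a median of 2.57 FPKM. Homeostatic microglia genes, the labelled cell type, had a median of 51.3 FPKM over the 20 of 21 that were measured, from Siglech at 0.482 to Cst3 at 1883. The library median of the 8 granule neuron genes was above that of the microglia list in 200 of 200 libraries. It was also above that of the oligodendrocyte list, whose median was 252 FPKM, in 198 of 200. Because the 8 were chosen with their levels known, these counts describe the 8 genes and do not rank the cell types. The library median of the 24 other granule neuron genes was typically lower than that of the microglia list (medians over libraries 37.2 and 46.5 FPKM). In bulk RNA, fewer cells of a type and less RNA per cell cannot be told apart.

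**Figure D1:**
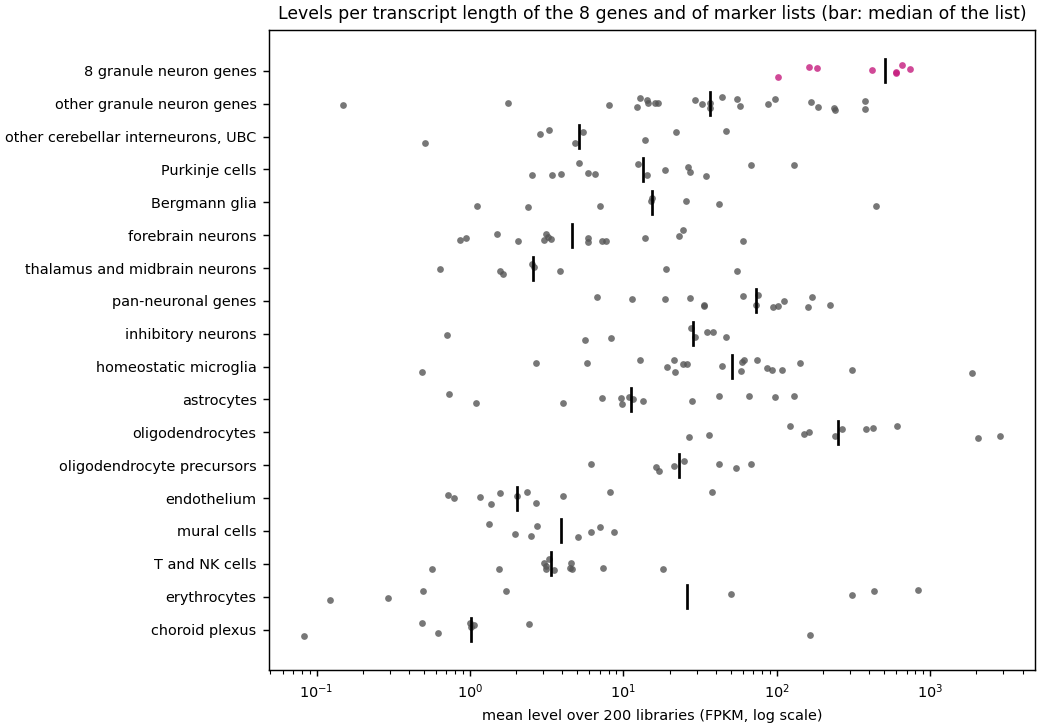
Mean level of each gene over 200 libraries, in FPKM on a log axis, for the 8 granule neuron genes (top row) and for 17 marker lists, with 1 point per gene and a bar at the list's median. The 8 genes lie between 102 and 733 FPKM, and the medians of the marker lists lie between 1.01 (choroid plexus) and 252 (oligodendrocytes).

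The summed level of the 8 genes was 9929.8 ± 921 CPM over all libraries (SD, n = 200) and varied 2.25-fold between the lowest and the highest library. By group, the lowest, median and highest sums were 7639.8, 10035 and 12200 CPM in chow ad libitum, 7036, 10125 and 11547 in chow dark-feeding, and 6475, 9748 and 10625 in chow light-feeding. They were 5425, 10051 and 11191 CPM in HFD ad libitum, 8312, 10094 and 12046 in HFD dark-feeding, and 8751, 10125 and 11954 in HFD light-feeding. The ranges of all 6 groups overlapped, and the group medians lay within 9748 and 10125 CPM. The lowest sum of chow light-feeding and of HFD ad libitum belonged to a library that stood apart. In the HFD ad libitum library at ZT6 the sum was 5425 CPM, against 9870.4 to 10934 in the other 4 libraries of its group and time. The 12 oligodendrocyte genes summed there to 27619 CPM, against 13370 to 16343, and the 12 T and NK cell genes to 232, against 59.0 to 84.4. In the chow light-feeding library at ZT18 the sum of the 8 genes was 6475 CPM, against 9783 to 10620 in the other 5, and T and NK cell genes summed to 186 CPM, against 50.2 to 62.4. In the chow ad libitum library at ZT14 it was 11085 CPM, against 7639.8 to 10212 in the other 4, and microglia genes summed to 1376 CPM, against 2059 to 4685. The part of these other cell types in the levels was not tested.

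**Figure D2:**
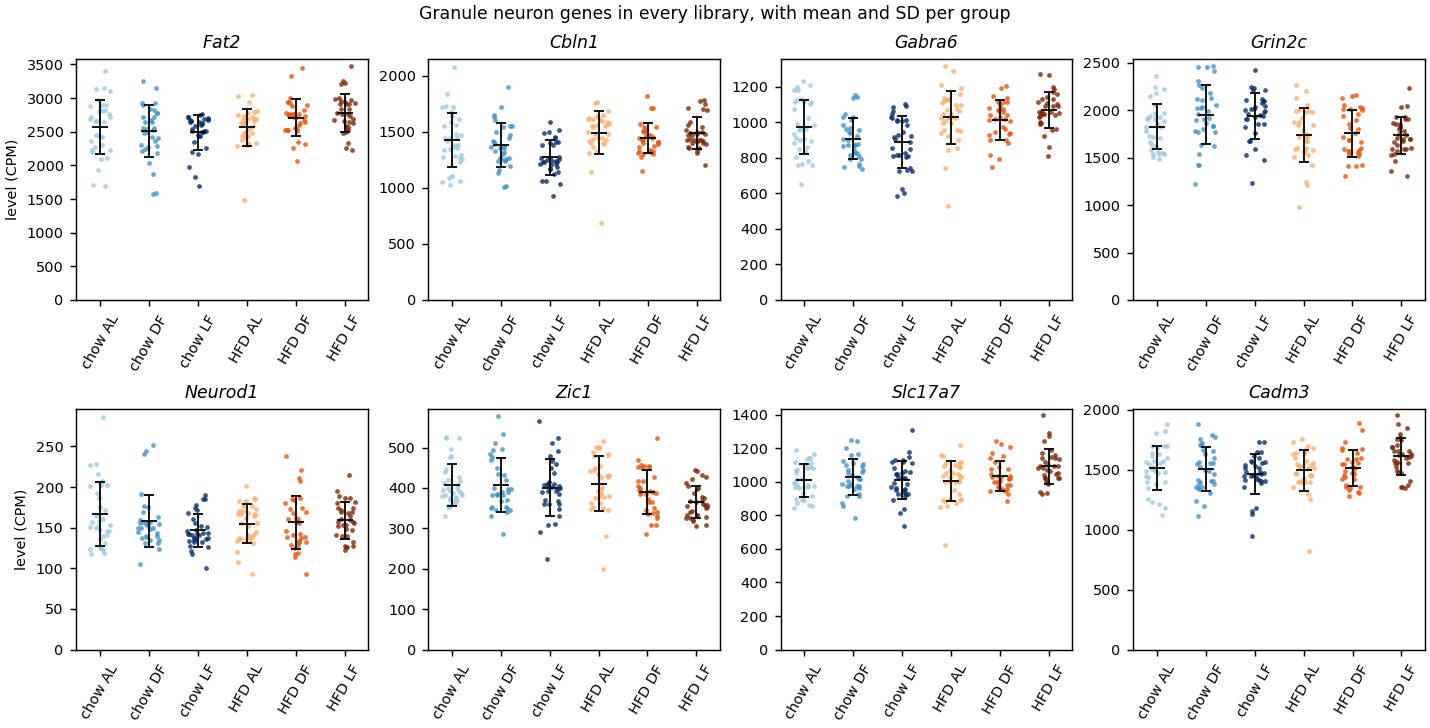
Level of each of the 8 genes in every library, in CPM on a linear axis from 0, by group (AL, ad libitum; DF, dark-feeding; LF, light-feeding), with mean and SD. The groups overlap for every gene, and the lowest HFD AL point of every gene is the library that stood apart at ZT6, as for Cbln1 at 689 CPM, where the next lowest is 1139.

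The first question of the design was whether HFD changed expression under each feeding schedule. Differences are log2 fold changes with the standard error (SE) of edgeR's quasi-likelihood fit with time as a factor, and a gene was called at a Benjamini-Hochberg adjusted p under 0.05 over 14393 genes. Under ad libitum feeding the members differed little between diets, from -0.12 for Neurod1 (SE 0.06) to 0.08 for Gabra6 (SE 0.05). Called members numbered 0 of 8, with 0 at an unadjusted p under 0.05 and 0 by DESeq2, where 9.96% of all genes were called higher and 10.1% lower.

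Under dark-feeding 2 members, Fat2 and Gabra6, were called higher with HFD and 1, Grin2c, lower, where 22.8% of all genes were called higher and 23.1% lower. Gabra6 ran from 736 over a median of 881 to 1152 CPM in chow and from 750.3 over 1028 to 1206 CPM with HFD, a log2 fold change of 0.16 (SE 0.04). Grin2c ran from 1222 over 1957 to 2467 CPM in chow and from 1305.5 over 1721 to 2159 with HFD, a log2 fold change of -0.15 (SE 0.04). Both ranges overlapped widely. Fat2 ran from 1574 over 2534 to 3253 CPM in chow and from 2070.0 over 2729 to 3451 with HFD, a log2 fold change of 0.13 (SE 0.05). Fat2 has one of the longest transcripts, longer than 99.7% of the genes with FPKM values, and its difference was -0.02 when a length offset was fitted, 0.09 on the log2(FPKM + 1) scale, where it was not called, and 0.04 without ZT14. Fat2 was also not called without ZT18 or ZT22, and Grin2c was not called without ZT2. The other members ranged from -0.06 (Zic1) to 0.07 (Cbln1). On the log2(FPKM + 1) and log2(FPKM + 0.1) scales Zic1 was called lower and Fat2 was not called, which made 1 member higher and 2 lower.

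Under light-feeding 6 members were called higher with HFD and 2 lower, where 25.2% of all genes were called higher and 25.1% lower. Because these values were known when the members were chosen, nothing is read from that count. The median log2 fold change of the 8 was 0.13, and that of all genes tested was -0.006. The ion channel subunits moved in opposite directions. Gabra6 ran from 584 over a median of 906 to 1103 CPM in chow and from 812 over 1061 to 1271 with HFD, and its log2 fold change of 0.28 (SE 0.04) was the largest of the 8. Grin2c ran from 1239 over 1982 to 2429 CPM in chow and from 1311 over 1714 to 2240.5 with HFD, a log2 fold change of -0.16 (SE 0.04). Both ranges overlapped, and the HFD median lay above the chow median for Gabra6 and below it for Grin2c.

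The synapse and adhesion genes were higher with HFD. Cbln1 ran from 929.96 over a median of 1241 to 1586 CPM in chow and from 1208 over 1477 to 1783 with HFD, a log2 fold change of 0.22 (SE 0.04). Cadm3 ran from 944 over 1472 to 1733 CPM in chow and from 1345 over 1611.5 to 1954 with HFD, a log2 fold change of 0.14 (SE 0.04). Fat2 ran from 1697 over 2591 to 2757 CPM in chow and from 2227 over 2759 to 3479 with HFD, a log2 fold change of 0.16 (SE 0.04). With a length offset the difference of Fat2 was 0.06 and was not called. Slc17a7, which loads glutamate into synaptic vesicles, ran from 738 over 1021 to 1309.6 CPM in chow and from 926 over 1081 to 1397 with HFD, a log2 fold change of 0.11 (SE 0.03).

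The transcription factors differed in sign. Neurod1 ran from 100.4 over a median of 142 to 189.9 CPM in chow and from 123 over 157 to 215 with HFD, a log2 fold change of 0.12 (SE 0.05). Zic1 ran from 225 over 399.8 to 565 CPM in chow and from 305 over 357 to 445 with HFD, a log2 fold change of -0.12 (SE 0.05). The HFD range of Zic1 lay inside its chow range. The lowest chow value of every member but Gabra6 belonged to the library that stood apart, and without it the same 8 members were called. Neurod1 was not called without ZT2 or without ZT10, nor Zic1 without ZT6 or without ZT10. On the log2(FPKM + 1) and log2(FPKM + 0.1) scales Neurod1 was not called either.

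Markers of other cells differed between the same groups. All 14 of 14 astrocyte genes were called lower with HFD under light-feeding, with a median log2 fold change of -0.72, and their sum ranged from 788 to 2552 CPM in chow and from 518 to 1153 with HFD. Homeostatic microglia genes were called lower in 11 of 19, with sums of 1926 to 4083 CPM in chow and 1393 to 2796 with HFD, and 8 of 12 oligodendrocyte genes were called higher. Of 14 Purkinje cell genes, 4 were called higher and 8 lower, with a median of -0.27, and their sums ranged from 1466 to 1998 CPM in chow and from 1567 to 2091 with HFD. Most of that sum was Cacna1a, at 1099 CPM pooled over all libraries, so it mainly describes that gene. None of these lists was at 0 in any group. With a forebrain neuron score in the model 4 members were called (Cbln1, Gabra6, Grin2c and Zic1). The forebrain neuron genes themselves differed between these groups, with sums of 404 ± 53.7 CPM in chow and 337 ± 26.8 with HFD (mean and SD). The score can therefore take up part of the diet difference. Libraries with neighbouring title numbers were also merged into runs. These were 80 over all 6 groups, and this fit held only those of its 2 groups, so it had fewer units than libraries. With runs as the unit 2 members were called (Cbln1 and Gabra6). Over all genes 5664 and 4925 of 14393 were called at these settings. Under dark-feeding 0 members and 2989 of all genes were called with runs as the unit. In the main fit, with libraries as the unit, 14 of 14 astrocyte genes were called lower with HFD under dark-feeding too. The part of these cell types and of the title order in the differences was not tested.

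**Figure D3:**
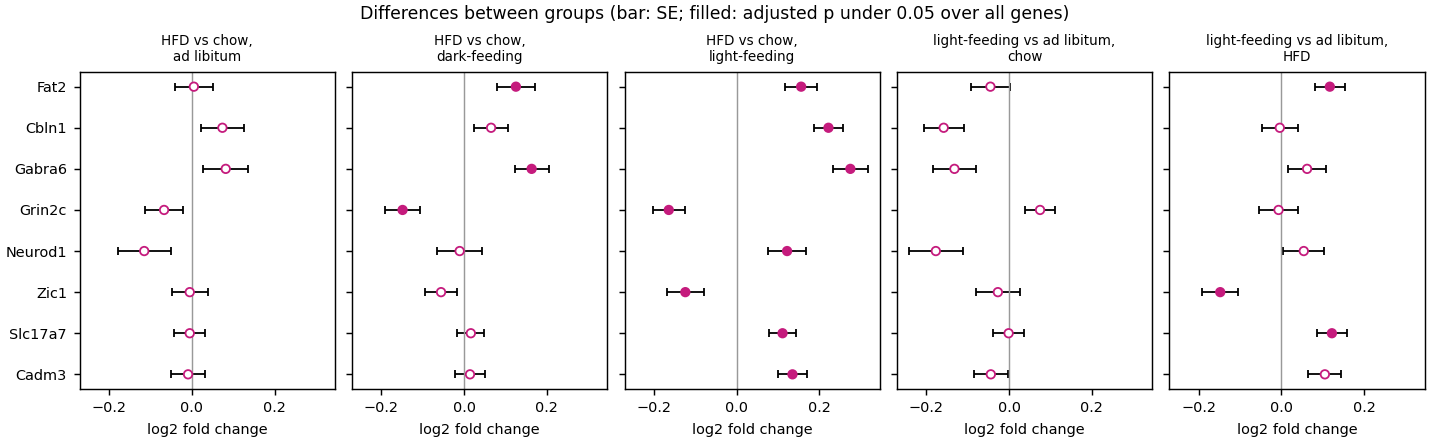
Log2 fold change of each of the 8 genes in 5 comparisons, with bars for the SE and filled points for genes called at an adjusted p under 0.05 over all genes. For HFD versus chow all 8 points are filled under light-feeding, 3 under dark-feeding and 0 under ad libitum feeding, and all 8 fall between -0.18 and 0.28 in the 5 comparisons. The panels share libraries.

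Granule neuron genes outside the 8 were tested in the same fit. Of the 23 of 24 that passed the filter on low counts, 2 were higher and 1 lower with HFD under ad libitum feeding, where 9.96% of all genes were higher and 10.1% lower. Neurod2, a factor related to Neurod1, fell by 0.19 on the log2 scale (SE 0.06, edgeR adjusted p = 0.019), and Etv1, an activity-dependent maturation factor, rose by 0.13 (SE 0.04, adjusted p = 0.025). The potassium channel gene Kcnk9 rose by 0.14 (SE 0.05, adjusted p = 0.041). Under dark-feeding, where 22.8% of all genes rose and 23.1% fell, 9 rose and 2 fell, led by Adcy1, a calcium-stimulated adenylyl cyclase (0.26, SE 0.05, edgeR adjusted p = 3.7e-06), Etv1 (0.20, adjusted p = 1.1e-05) and Chn2, a Rac GTPase-activating protein (0.18, adjusted p = 0.00045). Under light-feeding, where 25.2% of all genes rose and 25.1% fell, 11 rose and 3 fell. Adcy1 rose by 0.34 (SE 0.04, edgeR adjusted p = 5.3e-10), Chn2 by 0.22 (adjusted p = 2.8e-07) and Cbln3, the cerebellin that pairs with Cbln1, by 0.32 (SE 0.05, adjusted p = 7e-07). The medians of the 23 were 0.03, 0.06 and 0.08 under ad libitum, dark and light-feeding, beside -0.012, -0.007 and -0.006 over all genes tested.

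Whether the diet difference itself changed with the schedule was asked as an interaction with ad libitum feeding, which shares the ad libitum libraries between both tests. For dark-feeding 0 of 8 members were called, 0 had an unadjusted p under 0.05 and 0 were called by DESeq2, where 0.792% of all genes were called by edgeR (114 genes, and 49 without the libraries that stood apart). For light-feeding edgeR called 0 of 8, with 6 at an unadjusted p under 0.05 and 0 by DESeq2, where 5.98% of all genes were called higher and 3.84% lower. The interaction terms there ran from -0.13 for Zic1 (SE 0.07) to 0.23 for Neurod1 (SE 0.08), with 0.20 for Gabra6 (SE 0.07). Without the 3 libraries that stood apart 1 member, Zic1, was called. Title number largely separated the HFD groups within these interactions, and no interaction was fitted with a title spline or with title runs. Among the other granule neuron genes 5 had a higher diet difference under light-feeding. The term was 0.33 for Mab21l1, a developmental gene of unclear molecular role (SE 0.09, edgeR adjusted p = 0.0075), 0.29 for En2, a homeobox factor of the cerebellum (SE 0.09, adjusted p = 0.023), and 0.25 for Cbln3 (SE 0.08, adjusted p = 0.025). For dark-feeding 0 of 23 passed edgeR's threshold, with 3 at an unadjusted p under 0.05 and 0 by DESeq2, and En2 (adjusted p = 0.22) and Chn2 (adjusted p = 0.3) came nearest.

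The next question was whether restricting food to 1 phase changed expression within a diet. These comparisons share groups with each other and with the diet comparisons. In chow, dark-feeding against ad libitum gave 0 called members, 0 at an unadjusted p under 0.05 and 0 by DESeq2, and edgeR called 0% of all genes, with 1698 at an unadjusted p under 0.05 and 1 called by DESeq2. Light-feeding against ad libitum in chow gave 0 called members by edgeR, with 4 at an unadjusted p under 0.05, where 1.60% of all genes were called (230 genes, and 80 without the libraries that stood apart). Cbln1 had a log2 fold change of -0.16 there (SE 0.05) and was the 1 member that DESeq2 called. It was also called with a length offset, with Gabra6 when ZT14 was left out, and with Gabra6 and Neurod1 when ZT18 was. Calls over all genes rose at these settings too, from 230 to 503, 1450 and 1170 in the same order, and were 410 by DESeq2. Light-feeding against dark-feeding in chow gave 0 called members by edgeR and by DESeq2, 1 at an unadjusted p under 0.05, and 0% of all genes, with 620 at an unadjusted p under 0.05 and 0 by DESeq2.

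With HFD, light-feeding against ad libitum gave 2 members called higher and 1 lower, where 5.70% of all genes were called higher and 5.00% lower. Slc17a7 ran from 624.5 over a median of 1029.9 to 1222 CPM in ad libitum and from 926 over 1081 to 1397 in light-feeding, a log2 fold change of 0.12 (SE 0.04). Fat2 ran from 1481 over 2607 to 3044 CPM and from 2227 over 2759 to 3479, a log2 fold change of 0.12 (SE 0.04). Zic1 ran from 199 over 414 to 516 CPM and from 305 over 357 to 445, a log2 fold change of -0.15 (SE 0.04), so its light-feeding range lay inside the ad libitum range. The ranges overlapped for all 3 genes, the lowest ad libitum value of each was that of the library that stood apart, and without it the same 3 were called. Title numbers separated these groups, and with a spline on title number, or with title runs as the unit, 0 members and 0 of all genes were called by edgeR, with 1673 and 846 of all genes at an unadjusted p under 0.05. Leaving out ZT14 or ZT22 also left 0. Of 14 astrocyte genes 6 were called lower, and their sum ranged from 630 to 1787 CPM in ad libitum (629.79 at the lowest) and from 518 to 1153 in light-feeding. Dark-feeding against ad libitum with HFD gave 0 called members by edgeR and by DESeq2 and 1 at an unadjusted p under 0.05, where 4.70% of all genes were called. Light-feeding against dark-feeding with HFD gave 0 called members by edgeR and by DESeq2 and 4 at an unadjusted p under 0.05, where 0.0834% of all genes were called.

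The other granule neuron genes gave few calls between schedules. With HFD, light-feeding against ad libitum raised Cbln3 by 0.20 (SE 0.05, edgeR adjusted p = 0.0049) and Adcy1 by 0.13 (SE 0.04, adjusted p = 0.026), and Calb2, the calcium buffer calretinin, fell by 0.09 (SE 0.03, adjusted p = 0.038). In the other 5 schedule comparisons edgeR called 0 of 23. In chow, 2, 6 and 0 of them had an unadjusted p under 0.05 for dark against ad libitum, light against ad libitum and light against dark, and DESeq2 called 0, 1 and 0. With HFD, 3 and 2 had an unadjusted p under 0.05 for dark against ad libitum and light against dark, and DESeq2 called 0 and 1. The nearest in chow was Zic2, a relative of Zic1, at -0.19 in light-feeding against ad libitum (edgeR adjusted p = 0.062), with Mab21l1 next at -0.17 (adjusted p = 0.1).

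The design also asked which genes followed a 24 h rhythm in each group. Peak times and peak-to-trough folds are those of a fitted cosine. Grin2c was called in 5 of 6 groups, with fitted peaks between 4.1 and 9.2 h after lights on. Its fitted peak lay at 8.5 h with a 1.23-fold range in chow ad libitum, at 4.1 h with 1.40-fold in chow dark-feeding and at 9.2 h with 1.22-fold in chow light-feeding. With HFD it lay at 4.7 h with 1.27-fold under ad libitum and at 7.8 h with 1.31-fold under dark-feeding. Its mean in chow dark-feeding was 2332 ± 173 CPM at ZT2 (SD, n = 5) and 1593 ± 277 at ZT14 (n = 5). The 5 values at ZT2, from 2058 to 2467 CPM, all lay above the 5 at ZT14, from 1222 to 1917.

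Zic1 and Neurod1 had later fitted peaks, between 17.2 and 18.9 h, in the groups where they were called. In the other groups the fitted peak of Zic1 lay at 18.1 h (chow ad libitum), 6.0 h (chow light-feeding) and 22.8 h (HFD light-feeding), with folds of 1.15, 1.06 and 1.13. Zic1 was called in 3 groups, at 18.9 h with 1.29-fold in chow dark-feeding, at 18.6 h with 1.41-fold in HFD ad libitum and at 18.4 h with 1.29-fold in HFD dark-feeding. In HFD ad libitum its mean was lowest at ZT6, at 343 ± 83.7 CPM (n = 5; 199 to 402), and at ZT10, at 345 ± 37.2 (n = 5; 282 to 380.1), and highest at ZT18, at 475 ± 44.1 (n = 6; 387 to 502). The values at ZT18 overlapped those at ZT6 and not those at ZT10, and the lowest value at ZT6 was that of the library that stood apart. Neurod1 was called in 2 groups, at 17.5 h with 1.37-fold in HFD ad libitum and at 17.2 h with 1.54-fold in HFD dark-feeding. In chow dark-feeding its fitted peak also lay at 17.5 h, with 1.28-fold (edgeR adjusted p = 0.052). DESeq2, and edgeR with time as a factor, called it there. In chow ad libitum, chow light-feeding and HFD light-feeding the fitted peak of Neurod1 lay at 21.8, 20.2 and 2.7 h, with folds of 1.09, 1.07 and 1.105. In HFD dark-feeding its mean was 129 ± 23.3 CPM at ZT2 (n = 6; 92.5 to 161) and 191 ± 16.4 at ZT18 (n = 5; 180 to 220.3), without overlap.

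Gabra6 was called in chow light-feeding alone, at 19.0 h with 1.36-fold. Its mean there was 758 ± 43.3 CPM at ZT10 (n = 6; 724 to 814) and 1019.5 ± 83.3 at ZT22 (n = 6; 924 to 1103), without overlap. All 6 libraries at ZT10 had consecutive title numbers. Cadm3 was called in chow ad libitum (4.9 h, 1.22-fold) and in chow dark-feeding (6.6 h, 1.18-fold), and Fat2 in chow dark-feeding (5.5 h, 1.25-fold). Fat2 was lowest there at ZT14, at 1915 ± 352 CPM (n = 5; 1574 to 2365), and highest at ZT10, at 2898 ± 267 (n = 6; 2558 to 3253). In the main edgeR fit Cbln1 and Slc17a7 were called in 0 of the 6 groups. Cbln1 had a 1.27-fold range in chow ad libitum (edgeR adjusted p = 0.082), and Slc17a7 1.17-fold in chow light-feeding (adjusted p = 0.057). DESeq2, and edgeR without the libraries that stood apart, called each of them there. With time as a factor Cbln1 was called in chow light-feeding and Slc17a7 in chow dark-feeding.

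By group, called members numbered 2 of 8 in chow ad libitum, where 4.56% of all genes were called, 4 in chow dark-feeding, where 22.9% were, and 2 in chow light-feeding, where 20.3% were. They numbered 3 in HFD ad libitum, where 19.6% of all genes were called, and 3 in HFD dark-feeding, where 27.5% were. In HFD light-feeding they numbered 0, by edgeR and by DESeq2, with 1 at an unadjusted p under 0.05, where 0.841% of all genes were called. A difference in rhythm between groups was not tested. With a spline on title number 0 members were called in chow dark-feeding, chow light-feeding and HFD dark-feeding, 1 in chow ad libitum, and the same 3 in HFD ad libitum. The spline left 751, 0, 33, 490 and 1487 of all 14393 genes called in these 5 groups in the same order. In chow light-feeding and HFD dark-feeding, where it left 0 and 33 genes, its counts of 0 say nothing about the members. In chow dark-feeding the calls over all genes went from 3290 to 751 with the spline, and none of the 4 members called in the main fit was called. In chow light-feeding 1004 of all genes had an unadjusted p under 0.05 by edgeR at that setting. Without the libraries that stood apart 4 members were called in each of chow ad libitum, chow light-feeding and HFD ad libitum, where 1367, 3835 and 3235 of all genes were.

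**Figure D4:**
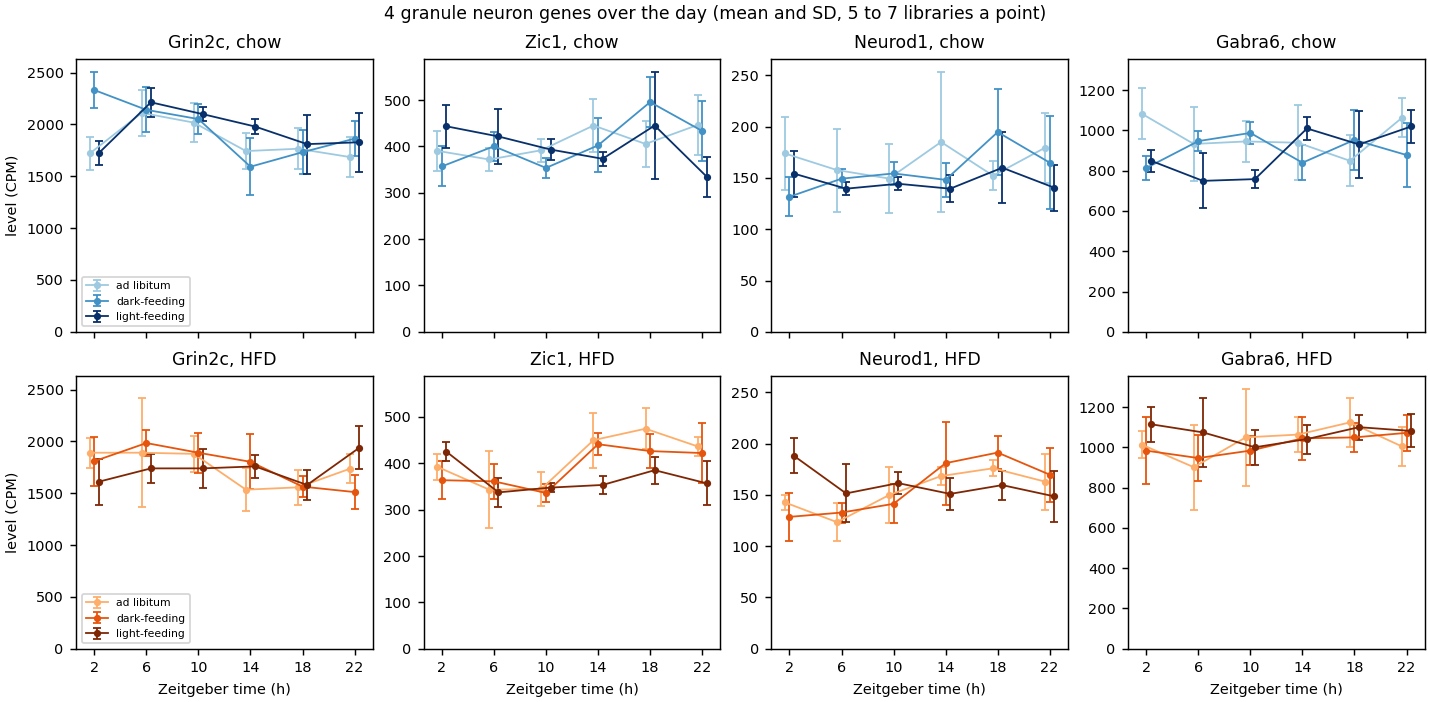
Mean level in CPM, with SD, of Grin2c, Zic1, Neurod1 and Gabra6 at 6 Zeitgeber times in hours, for 3 feeding schedules with chow (top) and HFD (bottom), on linear axes from 0. In HFD dark-feeding Neurod1 goes from 129 CPM at ZT2 to 191 at ZT18 while Grin2c goes from 1984 at ZT6 to 1511 at ZT22.

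Rhythms of the other granule neuron genes were called in 3, 9 and 5 of 23 in chow ad libitum, dark-feeding and light-feeding, where 4.56%, 22.9% and 20.3% of all genes were. With HFD they were called in 4, 12 and 0 of 23, where 19.6%, 27.5% and 0.841% of all genes were. In HFD light-feeding DESeq2 also called 0, 4 were below 0.05 in unadjusted p, and Grm4 came nearest (edgeR adjusted p = 0.15). Cdh15, a cadherin of granule neurons, peaked at 5.1 h with a 1.84-fold range in chow dark-feeding (edgeR adjusted p = 2.3e-07), at 6.1 h with 1.51-fold in chow ad libitum (adjusted p = 0.00035) and at 5.2 h with 1.56-fold in HFD ad libitum (adjusted p = 0.00041). Grm4 peaked at 23.1 h with 1.62-fold in chow dark-feeding (edgeR adjusted p = 3e-05) and at 22.3 h with 1.34-fold in chow ad libitum (adjusted p = 0.0078). In HFD dark-feeding Nrn1, a neurite growth protein, peaked at 19.5 h with 1.41-fold (edgeR adjusted p = 0.0003) and Zic5, another Zic factor, at 5.7 h with 1.24-fold (adjusted p = 0.00045).

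Between libraries of the same group and time the 8 genes rose and fell together to different degrees. After group and time means were removed, the 28 pairs of members had a median Pearson r of 0.51 over 200 libraries, and 15 pairs were above 0.5. The closest pair was Slc17a7 and Cadm3 (r = 0.88, Spearman's rho = 0.84), followed by Cbln1 and Cadm3 (r = 0.83, rho = 0.79) and Cbln1 and Gabra6 (r = 0.75, rho = 0.67). The lowest pair was Gabra6 and Grin2c, with r = -0.0 over all libraries and weakly negative values by rank (rho = -0.18) and without the 2 farthest libraries (r = -0.23). Mean r with the other 7 members was highest for Cadm3 (0.64) and Cbln1 (0.62) and lowest for Grin2c (0.35) and Zic1 (0.39). All points share the library and its scaling, and single-gene r with log2 depth ran from -0.07 (Gabra6) to 0.26 (Grin2c).

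A score, the mean of the standardised deviations of the 8 genes, was set beside the same score of 17 marker lists. With the 23 other granule neuron genes r was 0.93 (rho = 0.89), 0.91 without the 2 farthest libraries, and from 0.90 to 0.97 within the 6 groups. With other neurons of the cerebellum it was far lower, at 0.28 (rho = 0.29) for interneurons and unipolar brush cells and -0.03 (rho = -0.03) for Purkinje cells. It was 0.05 for pan-neuronal genes (rho = 0.08) and -0.37 for forebrain neurons (rho = -0.29). Every non-neuronal list had a negative value over all 200 libraries, among them Bergmann glia (r = -0.52, rho = -0.48), astrocytes (r = -0.50, rho = -0.49), oligodendrocytes (r = -0.53, rho = -0.46), homeostatic microglia (r = -0.49, rho = -0.42) and T and NK cells (r = -0.58, rho = -0.50). Within groups the r of mural cells ran from -0.73 to 0.21. The Bergmann glia and astrocyte lists share Slc1a3. Levels in CPM are shares of 1 total, so lists that are large shares of a library can have negative r by construction. The lists differed widely in share. By group mean, oligodendrocyte genes summed to 15473 to 18049 CPM and T and NK cell genes to 79.9 to 92.9. The part of shared totals in the r values was not tested. The r values are descriptions over libraries and carry no p.

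**Figure D5:**
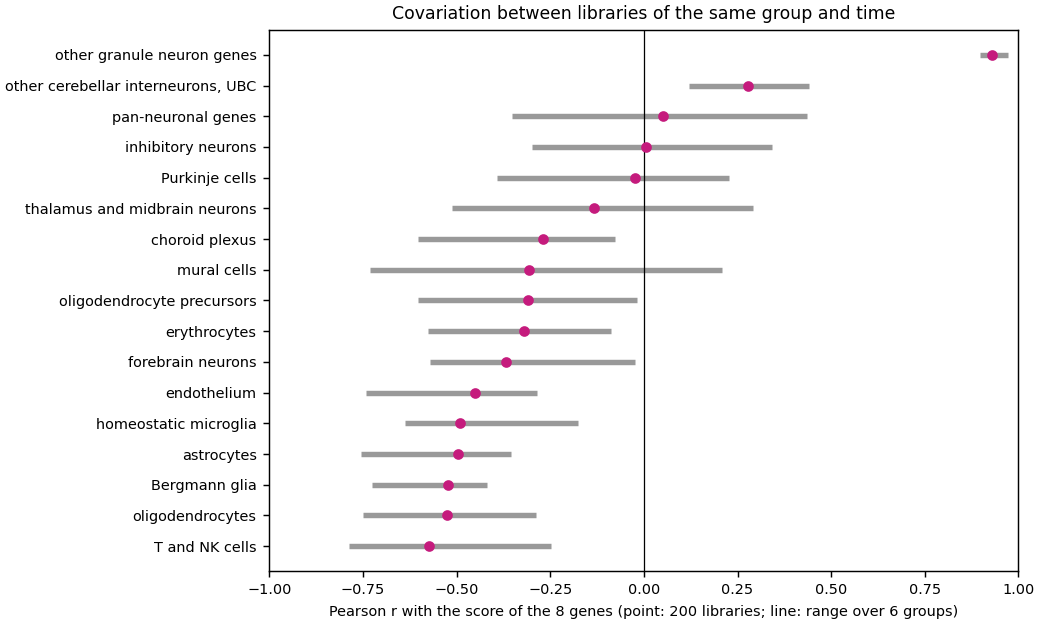
Pearson r between the score of the 8 genes and that of each of 17 marker lists, after group and time means were removed (point: all 200 libraries; line: range over the 6 groups). The point of the other granule neuron genes lies at 0.93, the Purkinje cell list at -0.03, and the lowest at -0.58 (T and NK cells).

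Among the genes whose library-to-library pattern was most like that score, of 11340 others with a symbol and a mean of at least 5 CPM, were Cnnm1 (r = 0.92), Mmp24 (r = 0.90), Kcnc1 and Wscd2 (both r = 0.89), Gprc5c (r = 0.88), Cntnap1 (r = 0.87) and Kcnj12 (r = 0.86). The median r of these 11340 genes was 0.04, and their 95th percentile was 0.58. Kcnc1, a fast voltage-gated potassium channel of granule neurons, is also among the 24 other granule neuron genes. Its level was 917 ± 107 CPM and 238 FPKM. Cnnm1, a membrane protein of the family related to magnesium transport, stood at 598 ± 52.9 CPM.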

How the data were processed

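Poly(A)-enriched, strand-specific RNA libraries were sequenced as DNA nanoballs, per the labels' protocols, and the submitters' processing notes name Rnor_6.0 as build. For the aligner and the counter, a name is not given in the sources used here. Per the file headers, the authors deposited expected counts for 20361 genes, not normalised, of which 8.03% of entries were not whole. They were rounded, where the design had foreseen raw counts. The authors also deposited FPKM values for 17611 genes, normalised for length and library size. The tables held 0 unused sample columns.

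The 8 members, the marker lists and the tests were chosen with earlier results of these data known. edgeR's low-count filter over the 6 groups left 14393 genes, all 8 members among them. Counts were scaled by TMM and tested with edgeR 4.0.16 in R 4.3.3 (quasi-likelihood test, Benjamini-Hochberg adjusted p under 0.05 over all genes). Each of 9 pairs of groups was fitted on its own libraries with time as a factor, 2 interactions on 4 groups, and rhythms in each group by 24 h cosine and sine terms. CPM are TMM-scaled. Alternatives were DESeq2 1.42.0, no filter, limma 3.58.1 on log2(FPKM + 1) and log2(FPKM + 0.1), a length offset, title runs as the unit (gaps up to 2), a forebrain neuron covariate, a title-number spline with 3 degrees of freedom, leaving out each time, time as a factor for rhythms, and, added after the data were seen, leaving out 3 libraries that stood apart. Covariation used log2 CPM with a prior count of 2. The fits were tested on simulated data.

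Named genes were all 8 members; of the other granule neuron genes, up to 3 per comparison past the threshold with the smallest adjusted p, and up to 2 with the smallest p where none passed; and the 8 most alike genes, of which 1 is not reported here. Genes at the ends of a list's FPKM values were named after these were seen. Promoters came from RefSeq (GRCr8) by symbol, and 6 of 8 members matched.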

Additional observations from a re-analysis of the deposited data

Results flagged for a closer look

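Within groups of libraries of the same diet, schedule and time, the highest or lowest library lay far from the rest by Dixon's criterion in 34 of 324 sets of values (10.5%). Chance gives about 1 in 20. Of these, 13 were in 2 of the 3 libraries that stood apart over all other genes, and 0 in the chow ad libitum library at ZT14.

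The HFD ad libitum library at ZT6 was the low one for Fat2 (1481 CPM), Cbln1 (689), Gabra6 (528), Zic1 (199), Cadm3 (826) and the sum of the 8 genes (5425). The chow light-feeding library at ZT18 was the low one for Fat2 (1697 CPM), Gabra6 (603), Grin2c (1239), Zic1 (225), Slc17a7 (738), Cadm3 (944) and the sum (6475).

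The others were scattered. In chow dark-feeding at ZT22 the high values were 1904 CPM for Cbln1, 1152 for Gabra6 and 244 for Neurod1, and at ZT6 the low value of Neurod1 was 131. In chow light-feeding at ZT10 the low values were 348 CPM for Zic1, 811 for Slc17a7 and 8475 for the sum, at ZT14 the low value of Grin2c was 1854, and at ZT6 the high value of Zic1 was 523. In chow ad libitum at ZT2 the high value of Zic1 was 479 CPM. In HFD ad libitum the high values were 3044 CPM for Fat2 at ZT2 and 999 for Slc17a7 at ZT14. The low values of that group were 1312 CPM for Cbln1 at ZT14, 897 for Slc17a7 at ZT2, and 387 at ZT18 and 396 at ZT22 for Zic1. In HFD dark-feeding the high values were 1711 CPM for Cbln1 at ZT22 and 220.3 for Neurod1 at ZT18, and the sum was low at ZT10 (9191). In HFD light-feeding the high values were 1265 CPM for Gabra6 at ZT2 and 399 for Zic1 at ZT6.

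The diet difference itself differed between light-feeding and ad libitum feeding, by edgeR's interaction test, for 5 of the 23 other granule neuron genes and 0 of the 8 members. Title number, which largely separated the HFD groups, was not in that fit. The interaction terms on the log2 scale were 0.33 for Mab21l1 (adjusted p = 0.0075), 0.29 for En2 (adjusted p = 0.023), 0.25 for Cbln3 (adjusted p = 0.025), 0.22 for Adcy1 (adjusted p = 0.028) and 0.19 for Chn2 (adjusted p = 0.035).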

How the results depend on the processing

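These alternatives moved the number of members called by more than 1.5 times, and smaller moves are not listed. For HFD versus chow, leaving out each time gave 0 to 1 under ad libitum feeding, title runs as the unit gave 0 in place of 3 under dark-feeding and 2 in place of 8 under light-feeding, and the forebrain covariate gave 4 there. For light-feeding against ad libitum in chow, DESeq2 and the length offset gave 1 in place of 0, and leaving out each time gave 0 to 3. With HFD, title runs and the title spline gave 0 in place of 3, the forebrain covariate gave 1, and leaving out each time gave 0 to 4. For light against dark-feeding with HFD, leaving out each time gave 0 to 1. The light-feeding interaction had 1 in place of 0 without the libraries that stood apart. Rhythm calls in chow ad libitum were 0 in place of 2 with no filter, on log2(FPKM + 1) and with time as a factor, 1 with the spline, and 4 without the libraries that stood apart. In chow dark-feeding they were 2 in place of 4 with no filter and 0 with the spline, in chow light-feeding 0 with the spline and 4 without the libraries that stood apart, in HFD dark-feeding 0 with the spline, and in HFD light-feeding 1 with time as a factor. Fat2 changed sign in HFD versus chow under dark-feeding with the length offset (-0.02 in place of 0.13). The cause was not tested. Over all genes, the calls ranged over the alternatives from 0 to 3522 (2888 in the fit reported) for HFD versus chow under ad libitum feeding, 2989 to 6922 (6603) under dark-feeding and 4925 to 7611 (7235) under light-feeding. For light-feeding against ad libitum they ranged from 0 to 1450 in chow (230) and 0 to 1897 with HFD (1540), for dark-feeding against ad libitum from 0 to 3 in chow (0) and 0 to 791 with HFD (676), for light against dark-feeding from 0 to 10 in chow (0) and 0 to 104 with HFD (12), and for the dark-feeding interaction from 46 to 188 (114). Rhythm calls ranged from 391 to 1367 in chow ad libitum (657), 751 to 5072 in chow dark-feeding (3290), 0 to 3835 in chow light-feeding (2920), 1487 to 3235 in HFD ad libitum (2818), 33 to 4218 in HFD dark-feeding (3959) and 0 to 1204 in HFD light-feeding (121). On log2(FPKM + 1) the split of higher and lower calls for HFD versus chow became 1056 and 1832 under ad libitum feeding (1434 and 1454 reported), 2301 and 4621 under dark-feeding (3279 and 3324) and 2713 and 4898 under light-feeding (3621 and 3614), and 530 and 578 for the light-feeding interaction (860 and 552). At that setting it became 8 and 38 for the dark-feeding interaction (34 and 80), 33 and 13 for light-feeding against ad libitum in chow (76 and 154), and 6 and 2 for light against dark-feeding with HFD (7 and 5). With the length offset the split for HFD versus chow moved the other way, to 1166 and 958 under ad libitum feeding, 3179 and 2471 under dark-feeding and 3831 and 2837 under light-feeding. No paired analysis was possible because the labels give no replicate numbers shared between groups. The lowest count of any member in any library was 531, for Neurod1.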
